A study of Rattus norvegicus with 12 samples.

Results

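The proximal tubule of the ZSF1 rat kidney was divided by the authors into 8 named clusters of nuclei, and 3 of these are described here, PCT, PST(S2) and PTnov1. They are what remains of the high-level type proximal tubule once the clusters PST, PST(Spp1+), PCT(Spp1+), PTinj and PTnov2 are set aside. The remaining set holds 41290 of the 131704 proximal tubule nuclei (31.4%) and of the 217132 nuclei of all types (19.0%). PCT, the proximal convoluted tubule, had 20917 nuclei, PST(S2), segment 2 of the proximal straight tubule, had 11961, and PTnov1, a proximal tubule cluster whose name gives no segment, had 8344. A further 68 nuclei of the high-level type, from 11 rats, carry the low-level name of another cell type, 25 of them TAL, 21 CNT/PC, 13 Immune, 4 Fib/Peri, 2 DCT, 2 DTL and 1 IC-A, and they are counted with the set as a whole but not described by name. In the other direction, 4 nuclei named PTnov1 and 1 named PST(S2) carry a high-level type outside the proximal tubule and were left out.

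Kidney nuclei of 12 male rats were sequenced in droplets, and transcripts were counted by their unique molecular identifiers (UMIs). The labels give ZSF1-LeprfaLeprcp/Crl for all rats, while the study treats lean and obese ZSF1 rats as different genotypes, the obese ones being diabetic through mutations of the leptin receptor, and 3 rats of each group entered the sequencing. Lean rats received no treatment, and the obese control rats (Obese) received vehicle from 13 to 14 weeks of age for 12 weeks, so that these groups differed in genotype, phenotype and dosing, which cannot be told apart. Other obese rats received, over the same 12 weeks, a soluble guanylate cyclase activator (Obese+sGCact, BAY 1101042, runcaciguat, 3 mg/kg given 2 times a day) or a soluble guanylate cyclase stimulator (Obese+sGCstim, BAY 1165747, 3 mg/kg given 1 time a day). The whole study had 6 lean rats, and its obese groups had 10 each.

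The proximal tubule reclaims most of the filtered glucose, amino acids, phosphate and protein, and its cells are rich in mitochondria. Its convoluted first part carries the glucose transporter SGLT2, encoded by Slc5a2, while the endocytic receptor megalin, encoded by Lrp2, is present along its length. Transport capacity and metabolism differ between the convoluted part and the straight part that follows, and in diabetes the tubule is exposed to high filtered glucose and protein. Levels of single genes were not analysed, so the names PCT, PST(S2) and PTnov1 are the authors' and were not checked against Lrp2 and Slc5a2. Transcripts of the mitochondrial genome are made outside the nucleus, and in libraries of nuclei their percentage of the UMIs is commonly read as a measure of library quality.

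The libraries differed before any grouping. A rat gave from 10488 to 43484 retained nuclei with 11898496 to 49272672 UMIs in all, and from 1889 to 6823 nuclei of the set described here. Each of the 12 rats gave more nuclei than the 10000 that, per the labels, were loaded, and the number of libraries behind a rat was not analysed here. RK7_4 and RK9_4, both Obese, and RK61_4, Obese+sGCstim, stood apart: PST, the largest cluster, had a median of 639 UMIs and 5.33% mitochondrial UMIs in RK7_4 and 887 UMIs and 4.28% in RK9_4, and 42.0% of the proximal tubule nuclei of RK61_4 were PST(Spp1+). Activator libraries shared part of this. PST of RK45_4 had a median of 739 UMIs and 2.03% mitochondrial UMIs. PST(Spp1+) made up 20.1% of the proximal tubule in RK45_4 and 24.2% in RK43_4, and both rats were kept throughout that alternative. In RK16_4, the third Obese rat, PST made up 15.4% of the proximal tubule, against 67.8% in RK7_4 and 75.4% in RK9_4. Without RK7_4, RK9_4 and RK61_4, RK16_4 was the only Obese rat and 2 stimulator rats remained. Changes given without these 3 libraries are therefore values against 1 Obese rat, assumed to vary like the other groups, and say little on how stable a result was. Pairs of rats shared from 0 to 14 cell barcodes among these nuclei, and no nucleus name was repeated.

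The 3 clusters were filled by all 12 rats, and no single rat supplied the larger part of any of them. The rat with most nuclei gave 18.5% of PCT (RK45_4), 16.5% of PST(S2) (RK45_4) and 25.8% of PTnov1 (RK9_4). The 3 rats with most nuclei of each cluster together gave 49.2%, 45.2% and 51.1%. Of the clusters set aside, the 3 rats with most nuclei gave 48.4% of PTinj, much as in the set described here. They gave 64.2% of PST, 88.8% of PCT(Spp1+), 89.5% of PST(Spp1+) and 95.8% of PTnov2.

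PCT was the most numerous of the 3 clusters and lay in the middle of them by depth. It had a median of 841 to 1751 UMIs per nucleus over the rats, above PTnov1 in 12 of 12 rats and below PST(S2) in 12 of 12. Its median mitochondrial percentage ran from 0 in RK7_4 to 2.44 in RK61_4, and 17.4% of its nuclei had no mitochondrial UMI. On the deposited 2-dimensional map, 86.8% of the 15 nearest nuclei of a PCT nucleus were PCT and 5.48% were PST(S2), as medians over the rats. Here and below, neighbours could come from any rat and not only from the rat of the nucleus. In RK61_4 the share of PCT neighbours was lowest, at 68.6%, and 23.0% of the PCT nuclei exceeded 5% mitochondrial UMIs against a median of 2.27% over the rats.

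PST(S2) was the deepest of the 3 clusters and the one with the fewest mitochondrial UMIs. Its median ran from 1261 UMIs in RK61_4 to 3912 in RK1_4, and within a rat it was 1.19 to 2.65 times the median of PCT. Of its nuclei 60.7% had no mitochondrial UMI and 0.192% exceeded 5%. Its median mitochondrial percentage stood at or below 0.0520 in 10 of the rats, and the exceptions were RK9_4 at 0.536 and RK61_4 at 1.00, which were also the rats with the fewest PST(S2) nuclei for their proximal tubule.

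The neighbourhood of PST(S2) on the map was mixed. Of the 15 nearest nuclei 65.5% carried its own name, 17.9% were PCT(Spp1+) and 13.8% PCT, while PST, the cluster that shares its name, gave 0.560%. Over the rats the share of PCT(Spp1+) neighbours ran from 12.8% to 35.7%, and RK61_4, with the highest value, had 32.7% neighbours of the same name. Of the PCT(Spp1+) nuclei, 61.6% came from RK9_4 and 23.6% from RK61_4. Neighbours of that name were therefore largely nuclei available from these libraries, also for PST(S2) nuclei of other rats. The map was made by the authors from the same expression values as the clusters, so these shares describe the drawing of the clusters and were not tested.

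PTnov1 was the shallowest of the 3 clusters and stood apart in its mitochondrial UMIs. Its median of 559 to 1225 UMIs was below that of PCT and PST(S2) in 12 of 12 rats. Of its 8344 nuclei 69.5% exceeded 5% mitochondrial UMIs, 32.8% exceeded 10% and 0.0360% had none. In 12 of 12 rats its median mitochondrial percentage was above those of PCT, PST(S2), PST, PCT(Spp1+), PST(Spp1+) and PTinj, and it was above PTnov2 in the 4 rats that had enough PTnov2 nuclei. With 6.34% of the proximal tubule nuclei, PTnov1 held 18.5% of those above 5% mitochondrial UMIs, while PST held 51.8% and PST(Spp1+) 20.7%.

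Against PCT, PST and PST(S2) the order also held among shallow nuclei. Among nuclei under 1000 UMIs, the median mitochondrial percentage of PTnov1 was above that of PCT in 11 of 11 rats with at least 20 such nuclei in both clusters. It was above that of PST in 9 of 9 and that of PST(S2) in 4 of 4. The other proximal tubule clusters were not compared among shallow nuclei. From 1000 to under 2000 UMIs, PTnov1 also had fewer genes per nucleus than PCT and than PST(S2) in 10 of 10 rats. Depth can still differ inside this window. As medians over the rats, the upper quartile of PTnov1 was 875.5 UMIs and the lower quartile of PST(S2) was 1777 UMIs. The part of depth in the lower number of genes was not tested. On the map 92.9% of its 15 nearest nuclei were PTnov1 as a median over the rats, with a range of 87.4% to 98.7%, and no other proximal tubule name reached 1% as a median.

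**Figure D1:**
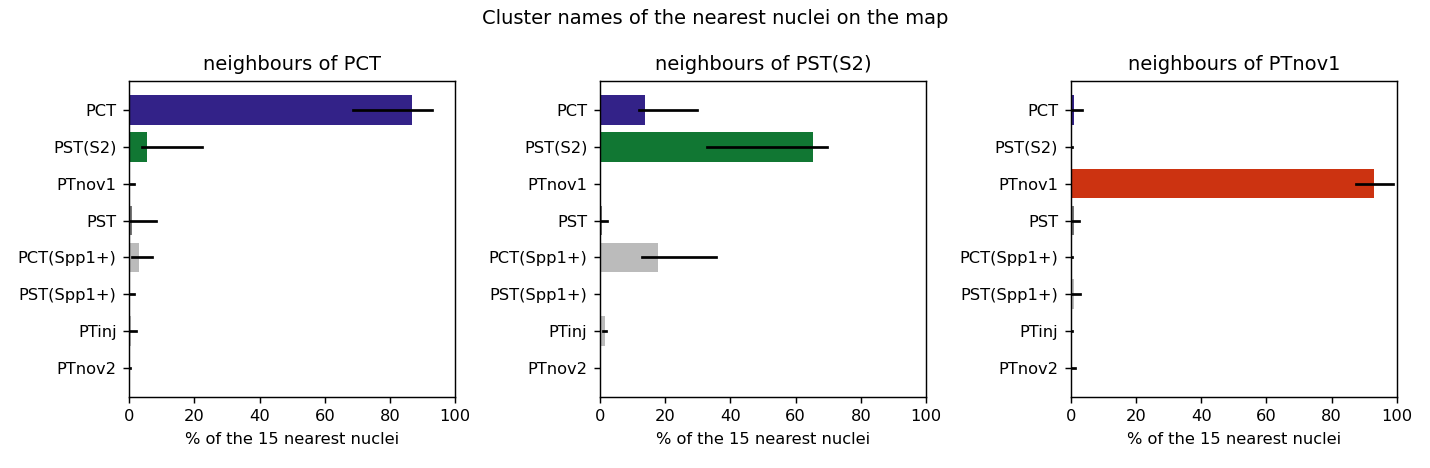
Cluster names among the 15 nearest nuclei of any rat on the deposited map, for PCT, PST(S2) and PTnov1. The horizontal axis is the percentage of neighbours, bars are medians over 12 rats and black lines run from the lowest to the highest rat; PTnov1 is nearly surrounded by itself, at 92.9%, while PST(S2) neighbours include 17.9% PCT(Spp1+) and 13.8% PCT.

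The clusters kept their order of depth while PST did not. In the Lean rats PCT had 0.433 to 0.504 times the UMIs of PST, and in RK7_4 and RK9_4 it had 2.01 and 1.51 times. PST(S2), which lay between 0.964 and 1.07 times PST in Lean rats, lay at 3.8 times in RK7_4 and 1.79 times in RK9_4. The same turn is seen in RK45_4, where PST had 739 UMIs, PCT 929 and PST(S2) 2326. Thus in 3 rats the nuclei named PST were shallower than those named PCT of the same kidney, and in 9 rats they were deeper.

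**Figure D2:**
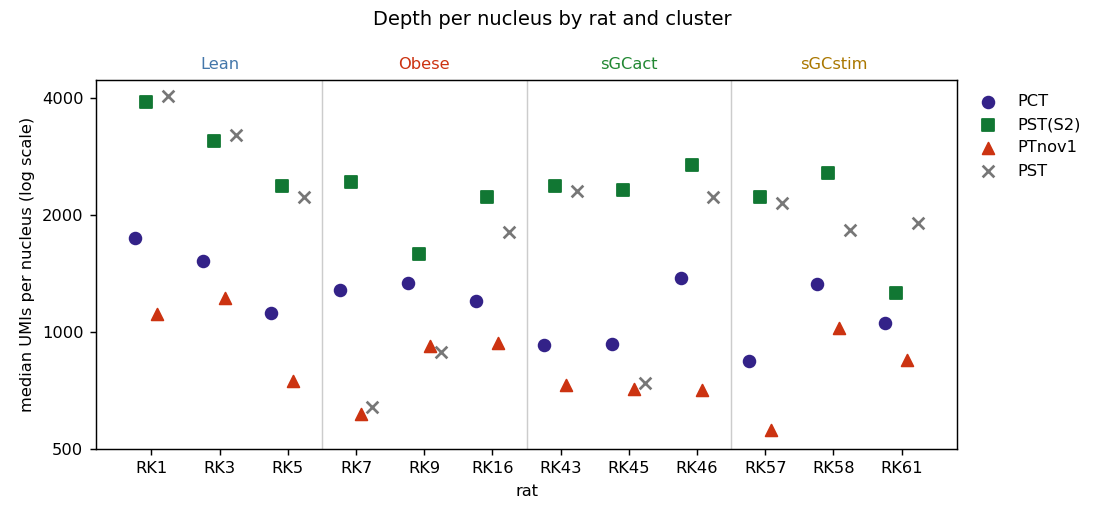
Median UMIs per nucleus (vertical axis, log scale) in each of 12 rats, in the order of the groups, for PCT, PST(S2), PTnov1 and, for comparison, PST. PST(S2) lies above PCT and PCT above PTnov1 in 12 of 12 rats, while PST falls below PCT in RK7_4, RK9_4 and RK45_4.

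The first comparison asked how the proximal tubule of a rat was divided among its clusters. PCT made up 15% in RK1_4, 24.7% in RK3_4 and 13.9% in RK5_4 of the proximal tubule of Lean rats. It made up 10.4% in RK7_4, 6.65% in RK9_4 and 23.1% in RK16_4 of that of Obese rats. The groups overlapped, since RK16_4 lay above RK1_4 and RK5_4 while RK7_4 and RK9_4 lay below every Lean rat. With the rat as the replicate, Obese rats had 0.644-fold odds (95% interval 0.209 to 1.99) of a nucleus being PCT relative to Lean rats (adjusted p = 0.636 from limma, exact two-sided permutation test, p = 0.5).

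PST(S2) spread the most. Its share was 9.92% in RK1_4, 15.6% in RK3_4 and 10.7% in RK5_4 of the proximal tubule of Lean rats and 8.17% in RK7_4, 0.897% in RK9_4 and 19.3% in RK16_4 of that of Obese rats. RK9_4 thus lay far below, and RK16_4 above, every Lean rat. The odds of PST(S2) in Obese relative to Lean rats were 0.429-fold, with a 95% interval of 0.0346 to 5.32 (adjusted p = 0.636 from limma, exact two-sided permutation test, p = 0.700). The 95% Wilson interval of the share in RK9_4, which covers counting error only, was 0.809% to 0.994%. Without RK7_4, RK9_4 and RK61_4, which leaves RK16_4 as the only Obese rat, the changes in log odds were 0.36 for PCT and 0.57 for PST(S2).

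PTnov1 was the steadiest. It made up 8.15% in RK1_4, 8.97% in RK3_4 and 8.03% in RK5_4 of the proximal tubule of Lean rats. In Obese rats it made up 5.01% in RK7_4, 5.38% in RK9_4 and 7.04% in RK16_4. All Obese rats thus lay below all Lean rats, which was so for 25% of the 8 proximal tubule clusters in this comparison (2 clusters, PTnov1 and PTnov2). The means were 8.38% ± 0.509 (SD, n = 3) and 5.81% ± 1.08 (SD, n = 3), and the difference did not pass the test, at 0.668-fold odds (95% interval 0.328 to 1.36) (adjusted p = 0.624 from limma, exact two-sided permutation test, p = 0.1, which is the lowest value 3 against 3 rats can give). By limma at an adjusted p of 0.05, 12.5% of the 8 clusters were called between Obese and Lean rats, and none of the 3 described here was. Without RK7_4, RK9_4 and RK61_4, and so with 1 Obese rat, the change of PTnov1 in log odds was -0.19. Its sign turned, to 0.47, when shares were scaled by the centred log-ratio over the proximal tubule clusters. The centre of that ratio takes in PTnov2, which had 0 nuclei in each Obese rat and 159 to 315 in Lean rats. The part of PTnov2 in the turn was not tested.

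**Figure D3:**
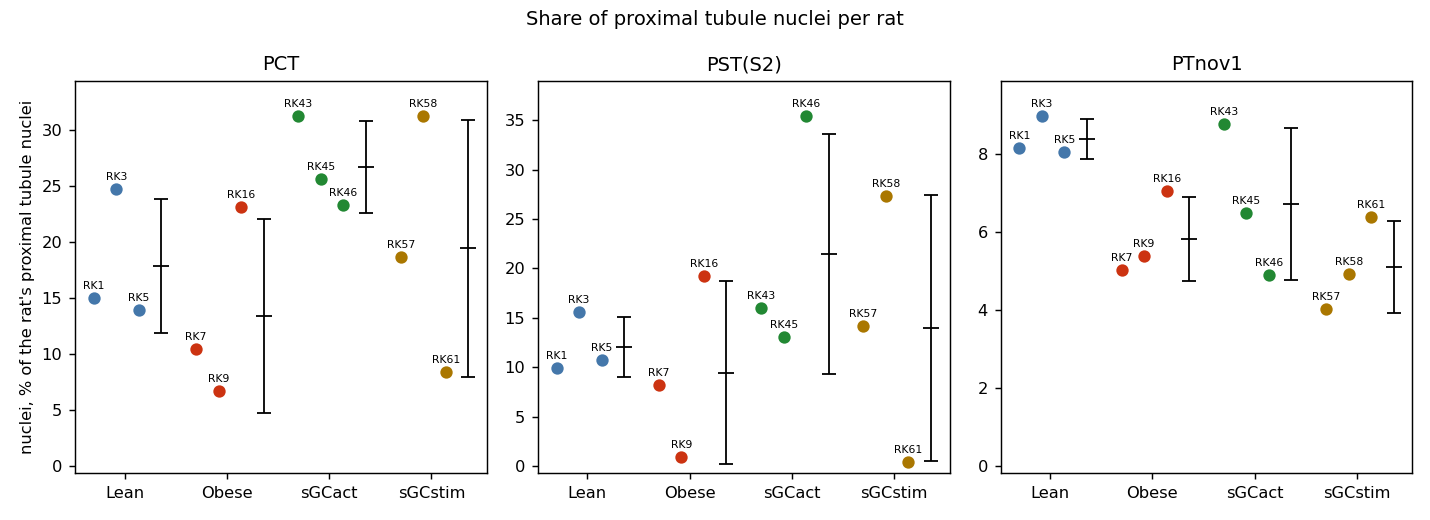
Nuclei of PCT, PST(S2) and PTnov1 as a percentage of the proximal tubule nuclei of the rat (vertical axis), by group. Points are the 12 rats (RK1 stands for RK1_4, and so on), the bar beside them the mean and SD over 3 rats; PTnov1 lies lower in each Obese rat than in each Lean rat, and PCT higher in each Obese+sGCact rat than in each Obese rat, and neither difference passed the test.

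The second comparison set each treated group against the Obese rats. Under the activator PCT made up 31.2% in RK43_4, 25.6% in RK45_4 and 23.2% in RK46_4 of the proximal tubule, and each of these rats lay above each Obese rat, which was so for 12.5% of the 8 clusters (PCT alone). The gap between the groups was narrow, since RK16_4 stood at 23.1% and RK46_4 at 23.2%. The odds of PCT were 2.67-fold those of Obese rats (95% interval 0.863 to 8.23, adjusted p = 0.256 from limma, exact two-sided permutation test, p = 0.1). Without RK7_4, RK9_4 and RK61_4 the change in log odds, 0.98 with all rats, was 0.18 against RK16_4 alone, the Obese rat with the largest share of PCT.

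PST(S2) under the activator made up 16.0% in RK43_4, 13.1% in RK45_4 and 35.4% in RK46_4 of the proximal tubule. RK46_4 held the largest share of any rat, and the other two lay within the range of the Obese rats. The odds were 4.34-fold, with an interval of 0.350 to 53.8 (adjusted p = 0.447 from limma, exact two-sided permutation test, p = 0.300), and the log odds change of 1.47 was 0.05 against RK16_4 alone. PTnov1 made up 8.77% in RK43_4, 6.47% in RK45_4 and 4.89% in RK46_4, which overlapped the Obese rats (1.15-fold odds (95% interval 0.564 to 2.33), adjusted p = 0.749 from limma, exact two-sided permutation test, p = 0.700).

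Under the stimulator the shares of the 3 rats were wide apart. PCT made up 18.7% in RK57_4, 31.2% in RK58_4 and 8.34% in RK61_4 of the proximal tubule, and PST(S2) made up 14.1% in RK57_4, 27.3% in RK58_4 and 0.402% in RK61_4. RK58_4 was near the top and RK61_4 at or near the bottom of all 12 rats in both clusters. The 66 PST(S2) nuclei of RK61_4 gave a 95% Wilson interval of 0.316% to 0.511% for their share, which covers counting error only. PTnov1 made up 4.02% in RK57_4, 4.91% in RK58_4 and 6.37% in RK61_4. None of the 3 clusters parted from the Obese rats, at odds of 1.56-fold (0.505 to 4.82) for PCT, 1.09-fold (0.0882 to 13.5) for PST(S2) and 0.865-fold (0.425 to 1.76) for PTnov1 (adjusted p from limma 0.801, 0.939 and 0.928).

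In both treated groups 0% of the 8 clusters were called by limma against Obese rats. Over the 3 comparisons, 0 of the 9 tests of PCT, PST(S2) and PTnov1 passed, 0 had an unadjusted p under 0.05, and edgeR called 0 of them. The activator and the stimulator were given at different doses per day, so their shares stand side by side and were not compared. The intervals were widest for PST(S2), where they took in differences of several-fold in either direction, and narrowest for PTnov1.

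The ratio of PCT to PST(S2) nuclei was far higher in RK9_4 and RK61_4 than in the other kidneys, which also differed among themselves. In 10 rats there were 0.655 to 1.96 PCT nuclei for each PST(S2) nucleus, with Lean rats at 1.30 to 1.59. RK9_4 had 7.42 and RK61_4 had 20.8. These were the rats in which PST(S2) was also shallow, at 1588 and 1261 UMIs, and the part of depth in the naming of these nuclei was not tested.

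All 41290 nuclei of the set together made up 17.9% in RK7_4, 11.9% in RK9_4 and 18.8% in RK16_4 of all nuclei in the Obese rats. Under the activator they made up 31.9% in RK43_4, 31.6% in RK45_4 and 20.7% in RK46_4. Each treated rat lay above each Obese rat, which was so for 4.35% of the 23 clusters when the set was counted as 1. The odds were 2.02-fold (95% interval 0.743 to 5.51, adjusted p = 0.489 from limma, exact two-sided permutation test, p = 0.1), and the log odds change of 0.70 was 0.51 against RK16_4 alone. The sign turned when the nuclei outside the proximal tubule were the reference, at -0.11, and by edgeR with TMM scaling, at a natural log change of -0.25. In Lean rats the set made up 12.8% in RK1_4, 22.6% in RK3_4 and 12.5% in RK5_4 and under the stimulator 19.2% in RK57_4, 28.4% in RK58_4 and 10.7% in RK61_4, both overlapping the Obese rats.

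Of the single clusters, PST(S2) parted in this measure. It made up 6.20% in RK7_4, 0.826% in RK9_4 and 7.29% in RK16_4 of all nuclei in Obese rats and 9.10% in RK43_4, 9.13% in RK45_4 and 11.5% in RK46_4 under the activator, with no overlap, as was so for 4.0% of the 25 clusters (PST(S2) alone). The odds were 3.12-fold with an interval of 0.469 to 20.7 (adjusted p = 0.496 from limma, exact two-sided permutation test, p = 0.1), and the log odds change of 1.14 was 0.33 against RK16_4 alone. Limma called 12.0% of the 25 clusters between Obese and Lean rats and 0% in each treated group against Obese rats. Of the 9 tests of PCT, PST(S2) and PTnov1, limma called 0 and edgeR called 0, and 0 reached an unadjusted p under 0.05. More nuclei of a cluster and fewer nuclei of the other cell types cannot be told apart in such a share.

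Depth was compared as the median number of UMIs per nucleus in each rat. For PCT the median was 1751 in RK1_4, 1519 in RK3_4 and 1122 in RK5_4 in Lean rats and 1285 in RK7_4, 1340 in RK9_4 and 1198 in RK16_4 in Obese rats. The 3 Obese values lay close together and inside the range of the Lean rats. PST(S2) had 3912 in RK1_4, 3103 in RK3_4 and 2379 in RK5_4 in Lean rats and 2429 in RK7_4, 1588 in RK9_4 and 2224 in RK16_4 in Obese rats, where RK7_4 overlapped the lowest Lean rat. PTnov1 had 1111 in RK1_4, 1225 in RK3_4 and 746 in RK5_4 in Lean rats. In Obese rats it had 616 in RK7_4, 918 in RK9_4 and 938 in RK16_4, and RK7_4 alone lay below every Lean rat.

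As log2 changes from Lean to Obese these were -0.18 (95% interval -0.80 to 0.45) for PCT, -0.58 (95% interval -1.21 to 0.04) for PST(S2) and -0.31 (95% interval -0.94 to 0.31) for PTnov1, with adjusted p from limma of 0.602, 0.224 and 0.465. In the same fit 16.7% of the 24 clusters were called between Obese and Lean rats, among them PST, all of them shallower in Obese rats. None of the 3 clusters was called, and with RK16_4 as the only Obese rat their changes were -0.26, -0.46 and -0.10.

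Depth relative to PST of the same rat, a reference chosen after seeing the data, described how far the clusters moved apart from PST. PST itself was called shallower in Obese rats, so a positive value here takes in that fall and does not show a change of the cluster itself. On that log2 scale the change from Lean to Obese was 1.43 (95% interval 0.35 to 2.51) for PCT, 1.02 (-0.09 to 2.14) for PST(S2) and 1.30 (0.24 to 2.35) for PTnov1, with adjusted p from limma of 0.0958, 0.132 and 0.0958, so that 0% of the 23 clusters were called there and 10 had an unadjusted p under 0.05.

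Relative to the other clusters of the same rat, the reference of the main fit, the changes from Lean to Obese were 0.27, -0.14 and 0.13 in log2 (adjusted p = 0.893 from limma for each), beside 8.33% of the 24 clusters called.

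No difference in depth between treated and Obese rats passed the test for these clusters. For PCT the median number of UMIs was 924 in RK43_4, 929 in RK45_4 and 1378 in RK46_4 under the activator and 841 in RK57_4, 1327 in RK58_4 and 1056 in RK61_4 under the stimulator. For PST(S2) they were 2370 in RK43_4, 2326 in RK45_4 and 2695 in RK46_4 under the activator and 2227 in RK57_4, 2562 in RK58_4 and 1261 in RK61_4 under the stimulator. Both treated groups overlapped the Obese rats in all 3 clusters, and groups did not overlap in 11.1% of the 18 clusters under the activator and 5.56% under the stimulator. RK61_4 had the shallowest PST(S2) of all 12 rats and RK57_4 the shallowest PCT. PTnov1 had 728 in RK43_4, 711 in RK45_4 and 709 in RK46_4 under the activator, the tightest group of the 4, and 559 in RK57_4, 1024 in RK58_4 and 845 in RK61_4 under the stimulator. Log2 changes against Obese rats lay between -0.27 and 0.26 with adjusted p from limma of 0.855 or more, beside 8.33% of the 24 clusters called under the activator and 0% under the stimulator. Over the 3 comparisons 0 of the 9 tests of these clusters had an unadjusted p under 0.05.

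The mitochondrial percentage set PTnov1 against the other clusters of the same kidneys. Its median was 3.51% in RK1_4, 5.74% in RK3_4 and 3.23% in RK5_4 in Lean rats. In Obese rats it was 12.7% in RK7_4, 12.3% in RK9_4 and 6.53% in RK16_4. Each Obese rat lay above each Lean rat, as was so for 11.1% of the 18 clusters with a value in every rat of both groups (PTnov1 and PST). The means were 4.16% ± 1.38 (SD, n = 3) and 10.5% ± 3.47 (SD, n = 3), a log2 change of 1.30 (95% interval 0.31 to 2.30), which had an unadjusted p of 0.0156 from limma and an adjusted p of 0.187 (exact two-sided permutation test, p = 0.1). Limma called 0% of the 24 clusters here and 3 had an unadjusted p under 0.05. With RK16_4 as the only Obese rat the log2 change was 0.68.

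In treated rats PTnov1 had lower values than in most Obese rats. The median was 6.99% in RK43_4, 4.87% in RK45_4 and 2.80% in RK46_4 under the activator. Under the stimulator it was 3.46% in RK57_4, 4.47% in RK58_4 and 6.65% in RK61_4. Both groups overlapped the Obese rats only through RK16_4 at 6.53%, and groups did not overlap in 5.56% of the 18 clusters in either comparison. The log2 changes were -1.12 (95% interval -2.11 to -0.13) under the activator and -1.09 (95% interval -2.08 to -0.10) under the stimulator, with unadjusted p from limma of 0.0306 and 0.0347 and adjusted p of 0.367 and 0.278, so that neither passed. Of the 24 clusters 4.17% were called under the activator and 0% under the stimulator. Both comparisons use the same Obese rats, and against RK16_4 alone, without RK61_4, the changes were -0.50 and -0.72.

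Within RK7_4 and RK9_4 the clusters were not alike. PCT had a median of 0% in RK7_4, the lowest of all 12 rats, and 0.571% in RK9_4, while PST of the same kidneys stood at 5.33% and 4.28%. In Lean rats PST lay at or below 0.0277%, under PCT at 1.18% in RK1_4, 0.907% in RK3_4 and 0.203% in RK5_4. PST(S2) of RK7_4 had no mitochondrial UMI in 82.7% of its nuclei. PCT was highest in RK61_4, at 2.44%, and lay at 2.01% in RK43_4, 0.481% in RK45_4 and 0.126% in RK46_4 under the activator.

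No change of PCT or PST(S2) passed the test in any of the 3 comparisons, and their medians near 0 make the log2 values depend on the constant of 0.1 added to the percentage. Relative to the other clusters of the same rat, 0% of the 24 clusters were called in each of the 3 comparisons and 0 of the 9 tests of PCT, PST(S2) and PTnov1 had an unadjusted p under 0.05. The excess of PTnov1 over the other clusters of its rat therefore was not shown to differ between groups.

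**Figure D4:**
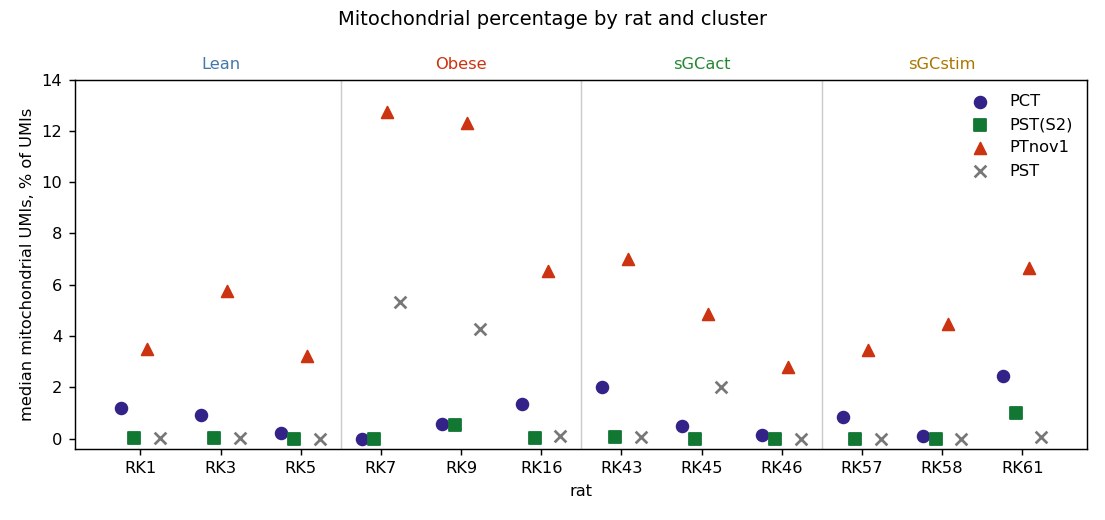
Median mitochondrial percentage of the UMIs (vertical axis) in each of 12 rats, in the order of the groups, for PCT, PST(S2), PTnov1 and, for comparison, PST. PTnov1 is highest in every rat and reaches 12.7% and 12.3% in RK7_4 and RK9_4, where PST is also raised while PCT and PST(S2) stay under 1%.

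Genes per nucleus were compared among nuclei of 1000 to under 2000 UMIs, since the number of genes depends on depth. The median number of genes of PCT was 1046 in RK1_4, 954 in RK3_4 and 835 in RK5_4 in Lean rats and 890 in RK7_4, 995 in RK9_4 and 904 in RK16_4 in Obese rats. PST(S2) had 1118 in RK1_4, 1048 in RK3_4 and 1068 in RK5_4 and 1008 in RK7_4, 988 in RK9_4 and 1068 in RK16_4. Values overlapped in both clusters. PTnov1 had 843 in RK1_4, 924 in RK3_4 and 786 in RK5_4 in Lean rats, 664 in RK9_4 and 794 in RK16_4, and RK7_4 had too few nuclei in the window (19). Changes from Lean to Obese were -0.02, -0.08 and -0.23 in log2 (adjusted p from limma 0.864, 0.562 and 0.167), beside 0% of the 22 clusters called by limma in this comparison. In the treated groups 0% were called as well, and 0 of the 9 tests of these clusters had an unadjusted p under 0.05. Among nuclei of 1500 to under 2500 UMIs the change of PTnov1 was -0.64 in log2. It passed the threshold, but rests on 1 Obese rat, RK9_4, with 38 nuclei, against 2 Lean rats. The share of all clusters called in this window is not given here, so the call cannot be set against it.

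The authors' phase scores, which summarise in each nucleus the expression of genes of S phase and of G2 and M phase, differed between Obese and Lean rats in PTnov1. Its mean G2M score was -0.00375 in RK1_4, -0.00429 in RK3_4 and -0.00700 in RK5_4 in Lean rats. In Obese rats it was 0.00483 in RK7_4, 0.00662 in RK9_4 and 0.00382 in RK16_4. All Obese rats lay above 0 and all Lean rats below, and the difference of 0.0101 (95% interval 0.00334 to 0.0169) passed the test (adjusted p = 0.0404 from limma, exact two-sided permutation test, p = 0.1). It was 1 of 6 clusters called, 25% of the 24 tested, and all 6 were higher in Obese rats, among them PST, PST(Spp1+) and PTinj. Their groups did not overlap either, which was so for 33.3% of the 18 clusters with a value in every rat of both groups. PCT and PST(S2) were not called, at 0.00343 and 0.00469 (adjusted p = 0.405 from limma and 0.407).

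The call in PTnov1 was not stable. It was lost without RK1_4, RK3_4, RK5_4, RK7_4, RK9_4, RK43_4 or RK45_4, though omitting any 1 rat kept the difference at 0.00911 to 0.0107. With RK16_4 as the only Obese rat, without RK61_4, it was 0.00883, which with 1 rat does not bear on the stability of the call. Among nuclei of 1000 to under 2000 UMIs, where RK7_4 and RK45_4 gave no value, the difference was 0.0139 with an adjusted p of 0.351 from limma, and with the median in place of the mean it was 0.0105 with an adjusted p of 0.643. The share of all clusters called in these settings is not given here, so the loss of the call cannot be set against it. The mitochondrial percentage of PTnov1 was higher in the same Obese rats, and its part in the score was not tested. No cycling can be read from these scores, since 29.8% to 44.7% of the PTnov1 nuclei of every rat were assigned to G2M and 31.0% to 39.1% of PCT nuclei were.

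Under the activator the G2M score of PTnov1 was -0.00542 in RK43_4, -0.00537 in RK45_4 and 0.00301 in RK46_4. Each of these rats lay below each Obese rat, as was so for 33.3% of the 18 clusters in this comparison, and the difference of -0.00768 did not pass (adjusted p = 0.164 from limma). Without RK46_4, the rat nearest to the Obese rats, it was -0.0105 with an adjusted p of 0.0493 from limma. The share of all clusters called in that setting is not given here. Among nuclei of 1000 to under 2000 UMIs, where RK7_4 and RK45_4 gave no value, the difference was 5.55e-05 with an adjusted p of 0.995 from limma. In that window RK43_4 stood at -0.0106 and RK46_4 at 0.0228, the latter a mean of 26 nuclei, against 0.00735 in RK9_4 and 0.00477 in RK16_4. Over the other alternatives run the difference stayed negative and was not called. Under the stimulator it was -0.00371 in RK57_4, -0.000901 in RK58_4 and 0.00394 in RK61_4, which overlapped, beside 5.56% of the 18 clusters without overlap (adjusted p = 0.611 from limma). In both treated groups limma called 0% of the 24 clusters against Obese rats.

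The mean S score parted the stimulator from the Obese rats in all 3 clusters, though in PTnov1 the sign of the difference turned with the median score, to -0.000734 with an adjusted p of 0.838 from limma. In PST(S2) it was 0.000928 in RK7_4, -0.00458 in RK9_4 and -0.00423 in RK16_4 in Obese rats and 0.00302 in RK57_4, 0.00410 in RK58_4 and 0.0109 in RK61_4 under the stimulator. In PCT it was 0.000259 in RK7_4, 0.000238 in RK9_4 and -0.00111 in RK16_4 and 0.00649 in RK57_4, 0.00391 in RK58_4 and 0.000679 in RK61_4. In PTnov1 it was -0.00122 in RK7_4, -0.00457 in RK9_4 and -0.00211 in RK16_4 and -0.000957 in RK57_4, 0.00375 in RK58_4 and -0.000967 in RK61_4. The groups did not overlap in any of them, which was so for 33.3% of the 18 clusters, all higher under the stimulator. The differences were 0.00865 for PST(S2) (unadjusted p = 0.00530, adjusted p = 0.0676 from limma), 0.00390 for PCT (adjusted p = 0.300) and 0.00324 for PTnov1 (adjusted p = 0.327), and 0% of the 24 clusters were called by limma, with 4 at an unadjusted p under 0.05. The value of RK61_4 in PST(S2) rests on 66 nuclei, and without this rat the difference was 0.00618 with an adjusted p of 0.0742 from limma.

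Under the activator and in Lean rats the S scores overlapped those of Obese rats in all 3 clusters. Limma called 0% of the 24 clusters in either comparison, with 2 and 4 clusters at an unadjusted p under 0.05, none of them PCT, PST(S2) or PTnov1.

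**Figure D5:**
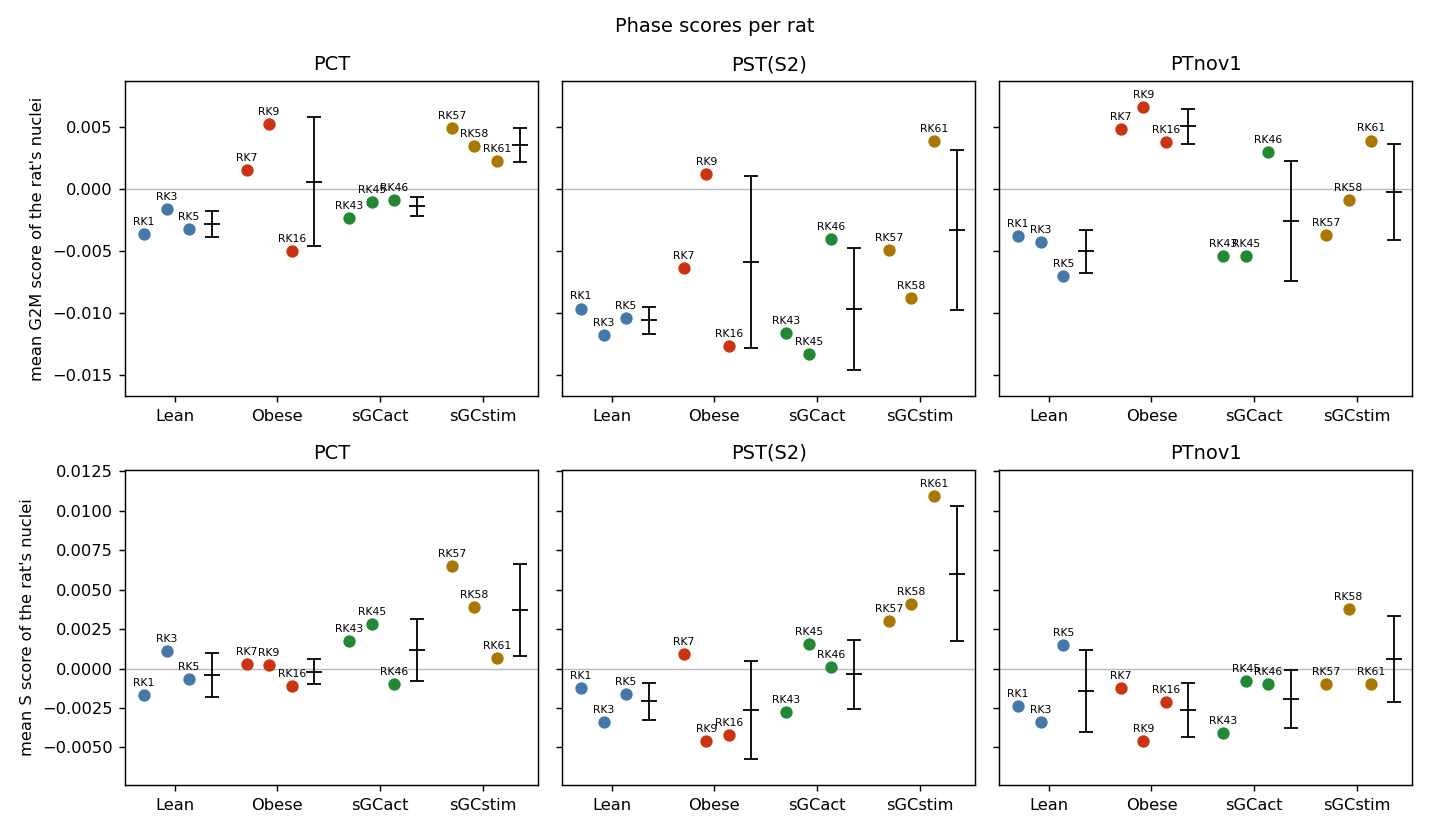
Mean G2M score (upper panels) and mean S score (lower panels) of PCT, PST(S2) and PTnov1 in 12 rats, by group, with the mean and SD over 3 rats beside the points; scores have no unit and no true 0. In PTnov1 the G2M score is above 0 in the 3 Obese rats and below 0 in the 3 Lean rats, and in all 3 clusters the mean S score of each Obese+sGCstim rat is above that of each Obese rat.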

How the data were processed

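Kidney nuclei of 12 ZSF1 rats were sequenced by the authors as single-nucleus libraries. Reads were aligned by the authors with Cell Ranger, given as version 6 in the submitters' processing notes and as another version in the study's methods, to rn6 with introns included, ambient RNA was corrected, doublets were removed with DoubletFinder, nuclei outside set limits of genes and mitochondrial UMIs were dropped, and libraries were joined with Harmony and clustered in Seurat. The deposited table gave, for each of 217132 nuclei, counts of UMIs and of genes, the percent of mitochondrial UMIs, S and G2M scores, and other columns with the authors' cluster names and map coordinates. Filtering on mitochondrial UMIs and on the number of genes bounds both measures, and counts for single genes were not analysed here.

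The rat was the replicate. Rats were tied to groups by the names in the table. Labels do not say how animals were assigned to libraries, so p-values measure the spread between these 12 rats, 3 in each of 4 groups. Shares were log odds (natural log) with 0.5 nuclei added to the cluster and 1 to the total. UMIs and genes were log2 medians, mitochondrial percentages log2 of the median plus 0.1, and scores means, with at least 20 nuclei per rat and cluster. Missing entries were left out and not imputed. Each measure was fitted with limma 3.58.1 in R 4.3.3, all 4 groups in 1 fit (8 residual degrees of freedom). The fit and its Benjamini-Hochberg adjustment ran over all clusters, except that the share of the proximal tubule was fitted over the proximal tubule clusters only. The threshold of this fit was 0.05. An exact two-sided permutation test of 10 splits accompanied it. edgeR 4.0.16 on nuclei was an alternative for shares. The scripts were tested on simulated data, with 200 simulations each. With 8 clusters, a change of 1 in log odds of the share of the proximal tubule was called in 12%, a change of 2 in 39.5% and a change of 4 in 81%. Over 25 clusters, a change of 1 in log odds of the share of all nuclei was called in 3%. A log2 change of 1 in UMIs was called in 48%, and log2 changes of 1 and 2 in the mitochondrial percentage in 7% and 23%. Changes of such sizes would thus often be missed. Wilson intervals cover counting error only. The clusters, comparisons and alternatives were chosen with earlier results of these data known, and clusters set against each other are described without a test because the names come from the same nuclei. No gene was named by a rule, since no gene values were used.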

Additional observations from a re-analysis of the deposited data

How the results depend on the processing

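With 3 rats a group, intervals of a share spanned several-fold, the authors' filters bound UMIs and mitochondrial percentages before any comparison, and groups differ in libraries that stood apart. Shares sum to a whole, so a change in 1 cluster moves the others. No paired analysis was possible because the rats in the table carry no replicate number, so the alternative with the replicate as a block was not run. The reference PST for relative depth was chosen after seeing the data, and PST was itself called shallower in Obese rats. Except in PTnov1 (the G2M score and the genes of deeper nuclei), no value of PCT, PST(S2) or PTnov1 passed the threshold of 0.05 under any alternative run.

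The G2M difference of PTnov1 between Obese and Lean rats kept its direction throughout, but was no longer called with the median score (0.0105, adjusted p 0.643 from limma) and at 1000 to under 2000 UMIs (0.0139, 0.351), leaving 0 of 3 clusters called in each. Without RK7_4, RK9_4 and RK61_4 it was 0.00883. That setting holds 1 Obese rat, RK16_4, whose spread is borrowed from the other groups. It says little here or in the values that follow. With 1 rat left out the difference ran from 0.00911 to 0.0107, with 0 to 1 of the 3 clusters called. Under the activator the count called was 0 to 1 as well. The share of all clusters called in these settings is not given here, so these counts cannot be set against it. At 1000 to under 2000 UMIs the activator difference in PTnov1 was 5.55e-05, where RK46_4 stood at 0.0228 from 26 nuclei and RK43_4 at -0.0106. The S score difference of PTnov1 under the stimulator was -0.000734 with the median score. In nuclei of 1500 to under 2500 UMIs the change in genes of PTnov1 between Obese and Lean rats was -0.64 in log2, which rests on 1 Obese rat.

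Signs of log odds changes of the share of the proximal tubule turned as follows, none of them past the threshold. Between Obese and Lean rats, without RK7_4, RK9_4 and RK61_4 the values were 0.47 (set as a whole), 0.36 (PCT) and 0.57 (PST(S2)). By the centred log-ratio they were 0.52, 0.46, 0.0287 and, for PTnov1, 0.47. In nuclei of at least 1000 UMIs they were 0.28, 0.33 and 0.0282, and in nuclei of at most 1% mitochondrial UMIs 0.66, 0.72 and 0.0368. Under the stimulator the values for the set, PCT and PST(S2) were -0.41, -0.15 and -0.48 by the centred log-ratio, -0.43, -0.46 and -0.54 at 1000 UMIs or more, and -0.55, -0.42 and -0.83 at 1% or less. The centre of the log-ratio takes in PTnov2, which had 0 nuclei in each Obese rat and 159 to 315 in Lean rats. The part of PTnov2 in the turns on that scale was not tested. PTnov1 under the activator was -0.0793 without the 3 libraries, -0.41 by the centred log-ratio, -0.34 by edgeR with TMM and -1.68 at 1000 UMIs or more. The set as a share of all nuclei under the activator was -0.25 by edgeR with TMM and -0.11 against nuclei outside the proximal tubule.

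In log2 UMIs under the stimulator, PST(S2) was 0.10 without the 3 libraries and 0.0451 at 1% mitochondrial UMIs or less, and PTnov1 was 0.0293 with mean UMIs. Relative depth between Obese and Lean rats was 0.0667 for PST(S2) without the 3 libraries, 1.02 relative to PST, and -0.00382 for PTnov1 relative to the other proximal tubule clusters.

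With each rat left out, the signs of these also turned: the share of the proximal tubule of PST(S2), from -1.56 to 0.0806 (Obese against Lean) and from -0.84 to 1.46 (stimulator), of PTnov1 from -0.0217 to 0.29 (activator) and of the set from -0.10 to 1.04 (stimulator), the UMIs under the stimulator of PST(S2), from -0.29 to 0.22, and of PTnov1, from -0.24 to 0.20, and the relative depth of PST(S2), from -0.26 to 0.0817, and of PTnov1, from -0.0149 to 0.32. The causes were not tested.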
